A study of Homo sapiens with 32 samples.

Results

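TCam-2 is a human cell line derived from a testicular seminoma, a germ cell tumour that keeps much of the expression program of primordial germ cells. The libraries described here are the 4 TCam-2 libraries grown with osteoprotegerin (OPG) and the 4 grown with RANKL, 8 of the 32 libraries of a series that also holds vehicle and denosumab libraries and a second line, NTera2, an embryonal carcinoma line. Both proteins were added at 1 µg/ml for 48 h to cells in RPMI 1640 with serum, and polyadenylated RNA was sequenced. OPG and RANKL libraries were paired by replicate number, since the labels give libraries of 1 number the same passage (118, 120, 121 and 122 for pairs 1 to 4) and describe 4 independent experiments. The comparison asks how cells given the decoy receptor differ from cells given the ligand. It holds no vehicle library, so it does not show which arm departs from untreated cells, and all 8 libraries come from 1 line.

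RANKL (gene TNFSF11) is a ligand of the tumour necrosis factor family. It binds the receptor RANK (TNFRSF11A), which recruits TRAF adaptors and activates NF-kB and MAP kinases, and it is best known for driving osteoclast formation. OPG (TNFRSF11B) is a secreted decoy receptor that binds RANKL and keeps it from RANK.

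The RNA integrity number, a scale on which intact RNA approaches 10, was 9.3 to 9.6 in the 4 OPG libraries. It was 9.5 in RANKL 1, 9.4 in RANKL 3, 6.1 in RANKL 2 and 3.7 in RANKL 4. Counts of called genes and the main gene lists are therefore given for all 4 pairs and for pairs 1 and 3 alone. The libraries held 11776951 to 20257935 counts and 21296 to 26009 detected genes. Pair 2 stood apart from the other pairs more than pair 4 did. Library quality weights (limma-voom, where libraries that fit the others well get more weight) were 0.440 for OPG 2 and 0.416 for RANKL 2, against 0.899 for OPG 4, 0.967 for RANKL 4 and 1.498 to 1.626 for the libraries of pairs 1 and 3. The weights come from a fit with the replicate block, where the 2 libraries of a pair get similar weights. They therefore describe pairs and cannot tell OPG 2, with an RNA integrity number of 9.5, from RANKL 2. The cause of the low weights in pair 2 was not tested.

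Genes of germ cell identity were at similar levels in both arms. POU5F1, a core pluripotency factor, averaged 1882 CPM (counts scaled to library size) with OPG and 1706 CPM with RANKL, and TFAP2C, a primordial germ cell regulator, 1353 and 1304 CPM. NANOG averaged 529 and 521 CPM, SOX17, a seminoma marker, 131 and 136 CPM, and PRDM1, a repressor of somatic genes in germ cells, 69.0 and 73.0 CPM. The receptor tyrosine kinase gene KIT was at 84.0 and 83.9 CPM. SOX2, which seminoma cells keep low, was at 2.61 and 2.01 CPM. Only POU5F1 of these 7 genes passed the test in pairs 1 and 3, and none passed over all 4 pairs (edgeR quasi-likelihood test, Benjamini-Hochberg adjustment over all genes). Markers of other cells were low or alike: the summed level of 9 immune cell markers was 2.44 to 4.15 CPM with OPG and 1.79 to 2.56 CPM with RANKL, with 2 of the 9 at 0 in every library. The 12 Sertoli, Leydig and endothelial markers summed to 24.3 to 26.8 CPM and 25.6 to 31.0 CPM, again with 2 at 0. The 10 fibroblast markers summed to 250 to 312 CPM and 251 to 309 CPM, most of it from COL1A2 at a mean of 252.89 and 241.37 CPM; 2 of them were at 0.

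Messenger RNA of the ligand and of its decoy was close to absent in both arms. TNFSF11 had counts of 0, 0, 3 and 0 in OPG 1 to 4 and of 0, 4, 0 and 0 in RANKL 1 to 4. TNFRSF11B had no count in any OPG library and 2, 3, 0 and 1 counts in RANKL 1 to 4, and neither gene was abundant enough to be tested. The receptor TNFRSF11A was counted in every library, at 23, 16, 24 and 28 counts in OPG 1 to 4 and 52, 32, 52 and 35 in RANKL 1 to 4. Every OPG library was below its RANKL partner, and on the CPM scale the groups overlapped slightly. The log2 fold change (OPG over RANKL throughout) was -0.65 with a standard error of 0.32, and the adjusted p was 0.853, so this difference did not pass the test. It was -0.64 in pairs 1 and 3 with an adjusted p of 0.371. LGR4, a second receptor for RANKL, was at 39.8, 41.5, 41.6 and 48.1 CPM with OPG and 46.0, 37.2, 54.3 and 59.2 CPM with RANKL. It was lower with OPG in pairs 1, 3 and 4 and higher in pair 2, with a log2 fold change of -0.19 (adjusted p = 0.853) over all 4 pairs and -0.30 (adjusted p = 0.0522) in pairs 1 and 3.

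Downstream of the receptor, few genes of the pathway were called. Over all 4 pairs 1 of 16930 genes tested passed an adjusted p of 0.05 (0.00591% of genes, higher with OPG; 970 genes had an unadjusted p under 0.05), and it was not a gene of the RANK pathway. The 24 tested RANK adaptors and kinases had a median log2 fold change of -0.06, with 9 of 24 positive, against a median of -0.01 and 46.6% positive over all genes; in pairs 1 and 3 the median was -0.10. The 12 NF-kB subunits and inhibitors had a median of 0.02 (0.03 in pairs 1 and 3), and the 11 tested NF-kB targets a median of 0.11 with 8 of 11 positive (0.12 and 6 of 11 in pairs 1 and 3). The 10 tested osteoclast genes that RANK induces in bone had a median of -0.08 with 4 of 10 positive, and in pairs 1 and 3 the sign turned, with a median of 0.04 and 5 of 9 positive. In pairs 1 and 3, where 2.06% of 15665 genes were called higher and 3.19% lower, BIRC2, an inhibitor of apoptosis that binds TRAF2, fell by 0.32 (adjusted p = 0.0450) and TAB2, an adaptor of the TAK1 kinase, fell by 0.28 (adjusted p = 0.0187) on the log2 scale, and NFKB2 was called higher (chosen after its values were seen). In pair 2 each of these 3 genes differed in the opposite direction. With the correction for base composition and length described further on, none of the 3 was called in pairs 1 and 3. That correction gave the RANK adaptors and kinases a median of 0.0002 over all 4 pairs, with 12 of 24 positive. In pairs 1 and 3 their corrected median was -0.07. No NF-kB target and no osteoclast gene was called in pairs 1 and 3.

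The gene that passed over all 4 pairs was KRT18, the gene of keratin 18, an intermediate filament protein of simple epithelia that pairs with keratin 8. It lies on chromosome 12 (52948871 to 52952900, GRCh38, plus strand). KRT18 stood at 2945, 4318, 3986 and 3945 CPM in OPG 1 to 4 and at 2441, 3659, 3149 and 3201 CPM in RANKL 1 to 4. Every OPG library was above its RANKL partner, but the groups overlapped, because OPG 1 was below 3 of the 4 RANKL libraries and pair 1 was low in both arms. The means were 3798.5 ± 593 CPM with OPG and 3112.5 ± 503 CPM with RANKL (SD, n = 4). KRT18 rose by 0.29 on the log2 scale with a standard error of 0.03 and an adjusted p of 0.00788. Without pairs 2 and 4 the log2 fold change was 0.31 (adjusted p = 8.94e-05), and in pairs 2 and 4 alone it was 0.27. The call rested on the pairing and on all pairs but the second: the adjusted p was 0.925 without the replicate block, 0.199 without pair 1, 0.175 without pair 3 and 0.366 without pair 4, while the log2 fold change stayed between 0.28 and 0.31 in these 4 fits and the fit without pair 2 (adjusted p = 8.43e-06). The adjusted p of KRT18 was 0.354 when all 16 TCam-2 libraries shared the estimate of the spread.

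The partner of keratin 18 and the other detected simple epithelial keratins were also at higher levels with OPG. The keratins were put together after their values were seen, so their count is a description. The list held 5 genes, of which 1 had no count in any library. KRT8 was at 2500, 3167, 3207 and 3648 CPM with OPG and 2144, 3137, 2676 and 3010 CPM with RANKL. KRT7 was at 101, 176, 192 and 177 CPM with OPG and 84.1, 156, 151 and 147 CPM with RANKL. KRT8 and KRT7 were higher with OPG in every pair, where 7.78% of all genes were. Their log2 fold changes were 0.19 and 0.27, with an adjusted p of 0.460 each. KRT19 was at 161, 187, 178 and 145 CPM with OPG and 128, 193, 147 and 142 CPM with RANKL, and pair 2 went the other way. All 4 tested keratins were called higher in pairs 1 and 3, where 2.06% of all genes were. KRT8 rose by 0.24 (adjusted p = 0.000355), KRT7 by 0.31 (adjusted p = 0.00347) and KRT19 by 0.31 (adjusted p = 0.00264). Corrected for base composition and length as described further on, KRT18 and KRT8 alone were called there, where 0.536% of all genes were called higher. KRT8 and KRT18 have many processed pseudogenes, so their levels are uncertain where reads could be assigned to a copy. In bulk RNA, more cells that express a gene and more RNA per cell cannot be told apart.

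**Figure D1:**
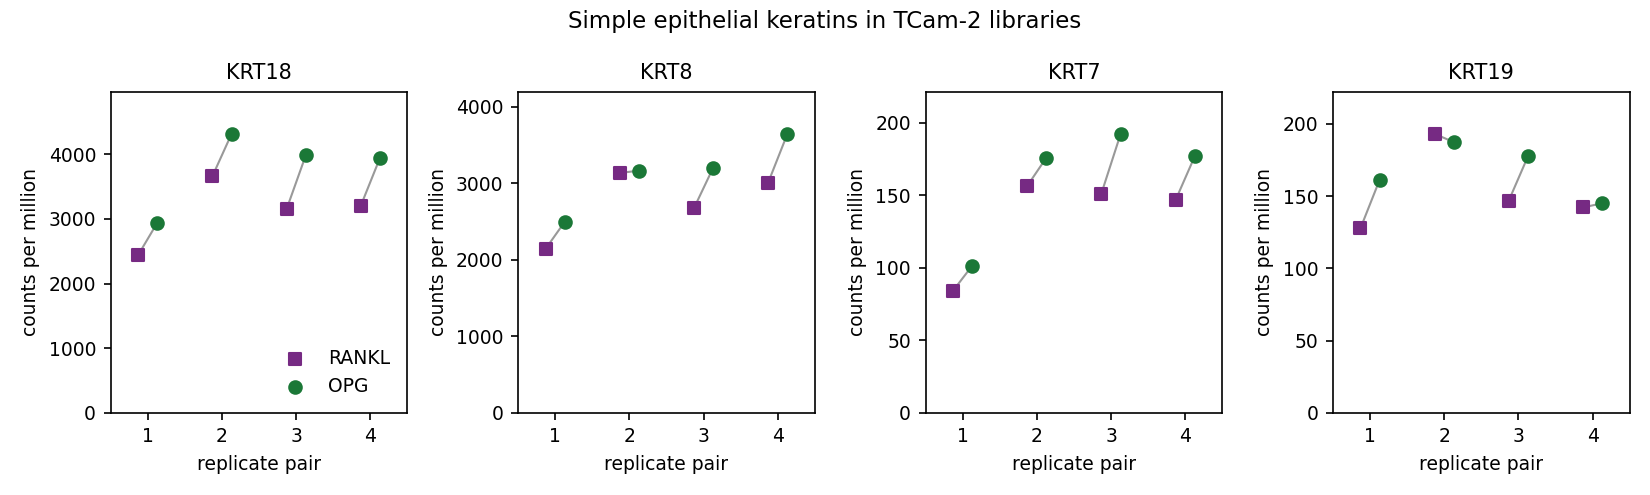
CPM (vertical axes, from 0) of KRT18, KRT8, KRT7 and KRT19 in each TCam-2 replicate pair (horizontal axes), with RANKL libraries as squares, OPG libraries as circles and a line joining the libraries of a pair. KRT18 and KRT7 were higher with OPG in all 4 pairs, KRT8 differed little in pair 2, and KRT19 was lower with OPG in pair 2.

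Beyond KRT18, the genes ranked next by p with the same sign in all 4 pairs did not pass over all 4 pairs, each with an adjusted p of 0.460 or more. Over all genes, 7.78% were higher with OPG in every pair and 7.06% were lower in every pair. PSRC1, a spindle protein, was at 69.9, 83.2, 87.7 and 85.7 CPM with OPG and 52.9, 69.6, 61.6 and 63.4 CPM with RANKL, so the lowest OPG library was just above the highest RANKL library. IFITM3, a membrane protein induced by interferon and a marker of early germ cells, was at 164, 151, 180 and 161 CPM with OPG and 124, 147, 128 and 114 CPM with RANKL, again without overlap. C1QTNF6, a secreted C1q family protein, was at 21.006, 24.3, 34.1 and 26.3 CPM with OPG and 18.1, 17.3, 19.5 and 16.5 CPM with RANKL. RPL41, a small ribosomal protein, was the fourth of the 12 highest-ranked genes whose libraries did not overlap, where 1.26% of all genes had every OPG library above every RANKL library. Their log2 fold changes were 0.40 for PSRC1, 0.36 for IFITM3, 0.55 for C1QTNF6 and 0.24 for RPL41. The others were YARS1 (0.29), the folate receptor gene FOLR1 (0.31), NOP56 of the nucleolar methylation complex (0.23), the HSP90 co-chaperone FKBP4 (0.19), the secreted stress-induced protein gene STC2 (0.36), and the long noncoding RNAs LINC02575 (0.43) and LINC02387 (0.23).

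The 12 genes ranked on the lower side were likewise below the threshold over all 4 pairs. SERPINE2, a secreted protease inhibitor, was at 317, 241, 234 and 215 CPM with OPG and 379, 263, 299 and 250.5 CPM with RANKL (log2 fold change -0.24). FADS2, a fatty acid desaturase, was at 222, 153, 169 and 134 CPM with OPG and 242, 198, 187 and 168 CPM with RANKL (-0.24). For these and most others each OPG library was below its partner while the groups overlapped. Only STRADB, a pseudokinase partner of LKB1, and MON2, a trafficking protein, had every OPG library below every RANKL library, where 1.44% of all genes did; their log2 fold changes were -0.43 and -0.33. The list also held the nuclear pore gene NDC1 (-0.32), the mitochondrial MT-ND5 (-0.22) and MT-ATP6 (-0.22), CRISPLD1 (-0.60), ANKRD12 (-0.59), LOC441666 (-0.55), the ubiquitin-conjugating enzyme gene UBE2J1 (-0.39) and the spindle orientation gene GPSM2 (-0.47).

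Many more genes were called without the pairs of low RNA integrity. The fit of pairs 1 and 3 called 822 of 15665 genes (5.25%), 323 higher and 499 lower with OPG. This fit has 4 libraries and leaves 1 residual degree of freedom, so the spread is estimated mostly by sharing over genes, and without the replicate block no gene was called (smallest adjusted p = 0.468; 1552 genes at an unadjusted p under 0.05). DESeq2 with the block called 74, 38 higher and 36 lower. No gene passed when the 14 TCam-2 libraries other than RANKL 2 and 4 were fitted together. The smallest adjusted p was 0.518, and 965 genes had an unadjusted p under 0.05. In that fit OPG 2 and 4 also enter, through the vehicle and denosumab libraries of their passages. The estimates therefore change as well as the spread. The highest-ranked genes were KRT18, IFITM3, KRT8 and RPS15 on the higher side and DSTN, ASPM, IPO7 and NCKAP1 on the lower side. RPS15, a protein of the small ribosomal subunit, was at 529 and 577 CPM in OPG 1 and 3 and 414 and 466 CPM in RANKL 1 and 3. It rose by 0.33 (adjusted p = 0.000155), and its log2 fold change was 0.18 in the fit of 14 libraries. DSTN, the actin-severing protein destrin, was at 215 and 174 CPM in OPG 1 and 3 and 278 and 233 CPM in RANKL 1 and 3, and fell by 0.39 (adjusted p = 0.000155). ASPM, a spindle pole protein, fell by 0.56, IPO7, an importin, by 0.40 and NCKAP1, a subunit of the WAVE actin complex, by 0.42.

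Pairs 2 and 4 did not treat these calls alike. Of the 323 genes called higher in pairs 1 and 3, 80.8% were higher with OPG in pair 4 but 38.1% in pair 2, where 48.3% and 50.6% of all genes were. Of the 499 called lower, 15.2% were higher in pair 4 but 86.2% in pair 2. RPS15 shows this gene by gene: it was 488 CPM in OPG 2 against 635 CPM in RANKL 2, and 504 CPM in OPG 4 against 484 CPM in RANKL 4. Over 9259 genes with a mean of at least 10 CPM, the differences of pair 1 correlated with those of pair 3 at Pearson r = 0.467 and with those of pair 4 at 0.217, but with those of pair 2 at -0.232. Pairs 3 and 4 correlated at 0.304, pairs 2 and 3 at -0.315, and pairs 2 and 4 at -0.0609. These are correlations across genes that share the libraries, and genes are not independent replicates. Leaving out pair 2 alone gave 564 calls over the other 3 pairs (3.35% of 16837 genes; 249 higher, 1.48%, and 315 lower, 1.87%), and leaving out pair 1, 3 or 4 gave none (smallest adjusted p 0.175 to 0.366; 533 to 621 genes at an unadjusted p under 0.05). Pair 4, whose RANKL library had the lowest RNA integrity, thus went with pairs 1 and 3 for most called genes, and pair 2 went against them.

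**Figure D2:**
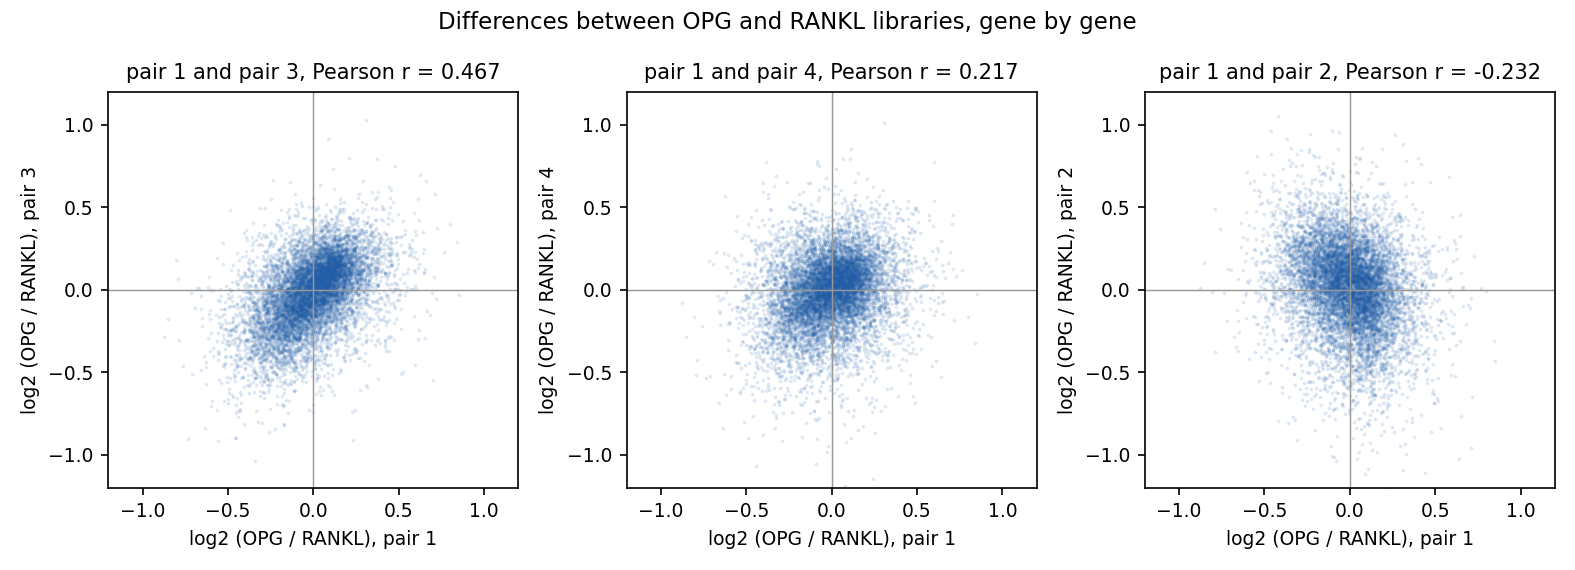
Log2 difference between the OPG and the RANKL library of pair 1 (horizontal axes) against that of pair 3, pair 4 and pair 2 (vertical axes), each point 1 of 9259 genes; 4 genes lie outside the axes of the last panel. Pearson r was 0.467, 0.217 and -0.232, so that only the cloud for pair 2 slopes downward.

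**Figure D3:**
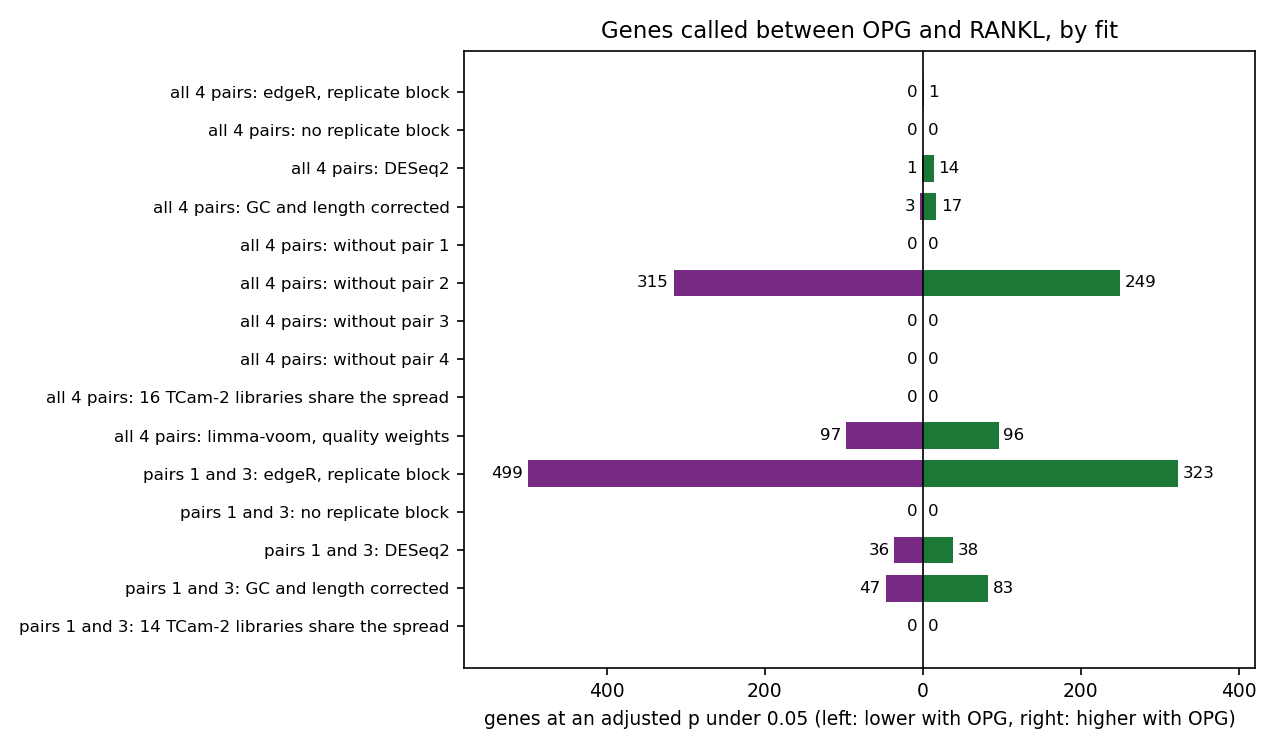
Number of genes at an adjusted p under 0.05 that were lower (bars to the left) or higher (bars to the right) with OPG, for fits of all 4 pairs and of pairs 1 and 3. The fit of all 4 pairs called 1 gene, the fit without pair 2 called 564 and the fit of pairs 1 and 3 called 822, while the fits of all 8 and of all 4 libraries without the replicate block called none.

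The base composition of genes moved with the calls. Genes called higher in pairs 1 and 3 had a median GC content of 58.0%, those called lower 39.9% and those not called 48.6%, and the medians of transcript length were 2827, 4370 and 3321 bases. Spearman's rho between the GC content of a gene and its difference was 0.492 in pair 1, 0.607 in pair 3, 0.242 in pair 4 and -0.533 in pair 2. With differences corrected for base composition and transcript length (a step chosen after seeing the data), 130 genes were called in pairs 1 and 3 (0.84% of 15480; 83 higher, 0.536%, and 47 lower, 0.304%). The same correction gave 20 calls over all 4 pairs (0.12% of 16682; 17 higher, 0.102%, and 3 lower, 0.018%). The 20 were KRT18, KRT8, YARS1, PSRC1, FOLR1, LINC02575, NOP56, FKBP4, RPL41, IFITM3, STC2, LINC02387, TIMM44, TIMM10, RPS7, EIF3A and HNRNPR on the higher side and MT-ND5, FADS2 and ID1 on the lower side. Corrected values for the main gene lists are given with each of them.

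The interaction term for the difference between OPG and RANKL in pairs 2 and 4 against pairs 1 and 3 called no gene (0% of 16930; smallest adjusted p = 0.590; 1339 genes at an unadjusted p under 0.05; DESeq2 also 0). The genes with the smallest p on the positive side were SUB1, HSP90B1, UQCRB and CENPE, and on the negative side TEDC1, CTXN1, EEF1A1P5 and SLC16A3. CENPE, a kinetochore motor, had a log2 fold change of -0.42 in pairs 1 and 3 and 0.16 in pairs 2 and 4, and SLC16A3, a lactate exporter, 0.45 and -0.24. Setting pair 4 alone against pairs 1 and 3 called 153 genes, and setting pair 2 alone against them called 2196. Each of these contrasts has 1 OPG and 1 RANKL library on the side of the single pair and leaves 1 residual degree of freedom, so the single pair is assumed to vary like the others.

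Genes of the integrated stress response and the unfolded protein response were mostly at higher levels with OPG. This response raises translation of the transcription factor ATF4 when amino acids run short or the endoplasmic reticulum is loaded, and ATF4 induces genes of serine synthesis, amino acid transport and tRNA charging. Over all 4 pairs 18 of 21 members had a positive log2 fold change (median 0.16) and none passed the test (smallest adjusted p = 0.499). In every pair 11 of 21 were higher, where 7.78% of all genes were. DESeq2 with the replicate block, which called 15 genes over all 4 pairs, called ATF4 and PHGDH of this list (adjusted p = 0.0338 and 0.0433). ATF4 itself was at 460.0, 560, 532 and 493 CPM with OPG and 393, 502, 455 and 443 CPM with RANKL. PHGDH, the first enzyme of serine synthesis, was at 305, 398, 364 and 327 CPM with OPG and 252, 356, 313 and 298 CPM with RANKL. For both genes each OPG library was above its RANKL partner, while the groups overlapped. The log2 fold changes were 0.19 for ATF4, 0.20 for PHGDH, 0.19 for SHMT2, a mitochondrial enzyme of serine use, and 0.18 for SLC3A2, the heavy chain of amino acid transporters.

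The fit of pairs 1 and 3, where 49.8% of all genes had a positive log2 fold change, called 8 of 21 members of this list higher and none lower, against 2.06% of all genes called higher. ATF4 rose by 0.23 (adjusted p = 0.00301), PHGDH by 0.25, SHMT2 by 0.25 and SLC3A2 by 0.22. Chosen after their values were seen, PPP1R15A, which dephosphorylates eIF2 alpha, rose by 0.36 and DDIT3, the transcription factor CHOP, by 0.51. Of these 8 genes, 8 were higher with OPG in pair 2 and 7 in pair 4, which the calls had not used. HSPA5, the chief chaperone of the endoplasmic reticulum and a target of the unfolded protein response, was at means of 830 and 838 CPM and did not pass. DNAJB9, an inhibitor of the sensor IRE1, had a log2 fold change of -0.26 and did not pass either. ASNS and CHAC1, a pair of ATF4 targets, had values of -0.15 and 0.04. The median GC content of the list was 52.3%, against 48.6% over all genes. Once corrected for base composition, 18 of 21 were again positive over all 4 pairs (median 0.14). In pairs 1 and 3, where the corrected fit called 0.536% of all genes higher, the calls dropped from 8 to 2, PHGDH and DDIT3. These list members beyond the 4 with the smallest p, here and in the lists that follow, were chosen after their values were seen.

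Cytosolic aminoacyl-tRNA synthetases, the enzymes that load amino acids onto tRNA, were put together after YARS1 ranked second, so the list is a description. Of 20 genes, 16 had a positive log2 fold change over all 4 pairs (median 0.13) and none passed. In every pair 10 were higher, where 7.78% of all genes were. DESeq2 called YARS1, AARS1 and SARS1 over all 4 pairs, among 15 genes in all. YARS1, for tyrosine, was at 239.5, 342, 296 and 262 CPM with OPG and 207, 266, 232 and 226 CPM with RANKL. AARS1, for alanine, was at 378, 457, 444 and 394 CPM with OPG and 323, 390, 380.1 and 357 CPM with RANKL, a log2 fold change of 0.21. SARS1, for serine, had a log2 fold change of 0.23. Of the 20, 6 rose in pairs 1 and 3 (2.06% of all genes were called higher) and RARS1, for arginine, fell by 0.23 (3.19% were called lower). The median there was 0.09. With the correction for base composition YARS1, AARS1 and SARS1 were the 3 calls, all higher, where 0.536% of all genes were called higher. The median GC content of these genes, 47.7%, was below that of all genes, and pair 2 had the highest median difference of the 4 pairs, 0.25.

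ATF4 acts with partner proteins on a DNA element whose letters were searched as TGATGNAA on both strands in the 250 bases before each gene start, in promoters of RefSeq (GRCh38.p14). It was found in 4 of 19 matched promoters of the stress response list (21.1%), 2 of 16 matched synthetase promoters (12.5%) and 870 of all 27305 promoters (3.19%). The 30-base windows are shown because members of both groups share these letters, with the matched letters in capitals, read 5′ to 3′ on the strand that holds the match.
AARS1 (chr16:70289675-70289704, plus strand, gene on the minus strand): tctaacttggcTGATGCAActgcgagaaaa
IARS1 (chr9:92293698-92293727, plus strand, gene on the minus strand): ggaggTGATGCAAcgcgctgaaaatgcggg
ATF3 (chr1:212565205-212565234, plus strand, gene on the plus strand): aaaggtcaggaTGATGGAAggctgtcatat
CHAC1 (chr15:40953251-40953280, minus strand, gene on the plus strand): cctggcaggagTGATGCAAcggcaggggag
ASNS (chr7:97872458-97872487, minus strand, gene on the minus strand): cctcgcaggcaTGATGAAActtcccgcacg
HERPUD1 (chr16:56931955-56931984, minus strand, gene on the plus strand): tgggcacgggcTGATGCAAcccgccgcgtc
Of these 6 genes AARS1 alone was called in pairs 1 and 3, rising by 0.23 (adjusted p = 0.00358), where 2.06% of all genes were called higher. ATF3 had a log2 fold change of 0.23 over all 4 pairs, IARS1 0.05 and HERPUD1 0.03. ASNS had a negative and CHAC1 a small positive value, given above, and none of these genes passed the test. The stress response list holds ATF4 targets such as ASNS and CHAC1, so its share of matches depends on how the list was chosen. A match describes letters and is not a measured site.

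Genes of glycolysis and the response to low oxygen were also mostly higher with OPG. Over all 4 pairs 20 of 23 had a positive log2 fold change (median 0.12) and none passed (smallest adjusted p = 0.460). In every pair 10 were higher, where 7.78% of all genes were. ENO1, the glycolytic enzyme enolase, was at 3010, 3242, 3226 and 2880.5 CPM with OPG and 2666, 2988, 2795 and 2665 CPM with RANKL. HK2, a hexokinase that commits glucose to glycolysis, was at 156, 123, 130 and 104 CPM with OPG and 115, 107, 98.5 and 97.5 CPM with RANKL. The HK2 difference was widest in pairs 1 and 3 and smallest in pair 4. The test called 10 of 23 higher in pairs 1 and 3 and none lower, where 2.06% of all genes were called higher; HK2 rose by 0.42 (adjusted p = 0.000355), ENO1 by 0.19, and GAPDH and TPI1 by 0.14 each. VEGFA, a secreted growth factor induced by low oxygen, rose by 0.67 in pairs 1 and 3 but had negative differences in pairs 2 and 4. PDK1, a kinase that inhibits pyruvate dehydrogenase, was lower with OPG in every pair, with a log2 fold change of -0.24 that did not pass. The median GC content of the list was 52.95%. With the correction its median log2 fold change was 0.09 over all 4 pairs and 0.12 in pairs 1 and 3. In the corrected fit of pairs 1 and 3, 7 of the 23 were called higher, against 0.536% of all genes.

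**Figure D4:**
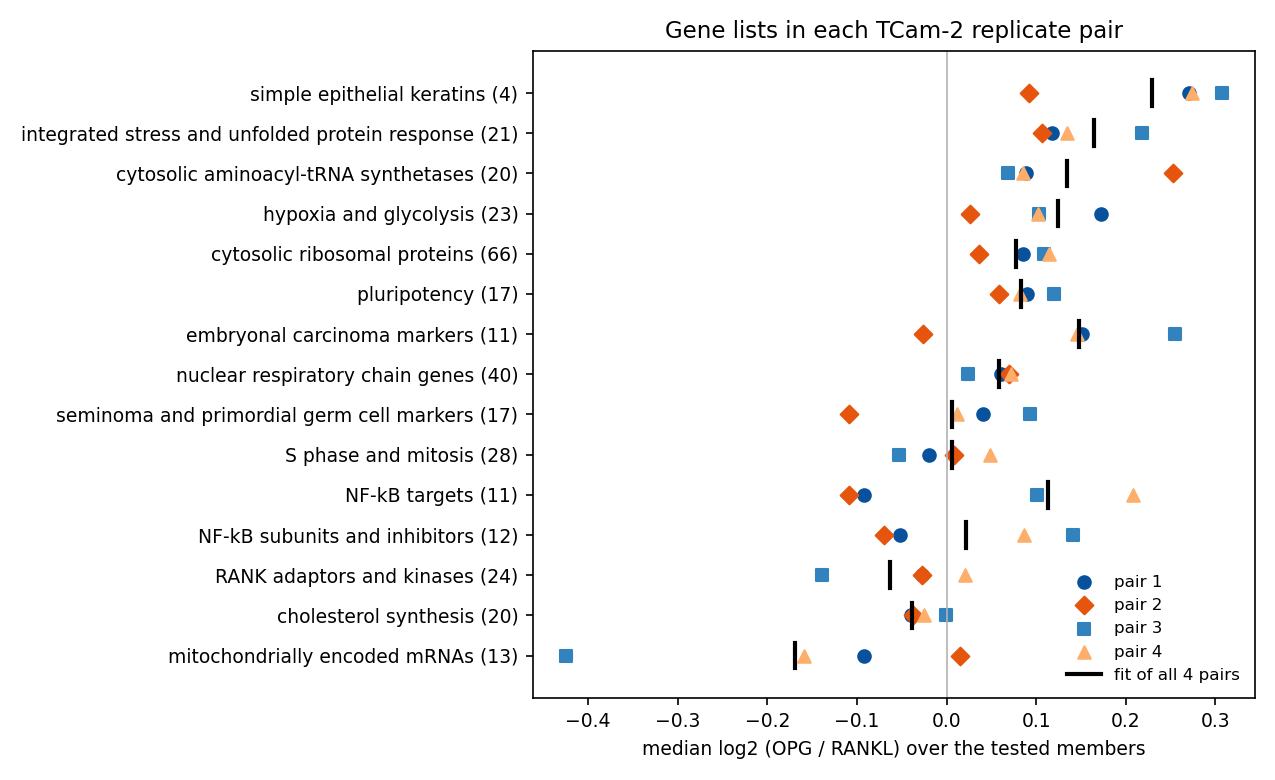
Median log2 ratio of OPG to RANKL (horizontal axis) over the tested members of each gene list (rows, number of tested members in parentheses), as 1 symbol for each replicate pair and a black bar for the fit of all 4 pairs. The keratin, stress response, synthetase, glycolysis, ribosomal protein, pluripotency and nuclear respiratory chain lists have 4 positive pairs, and the mitochondrially encoded mRNAs are lowest in pair 3 at -0.42 and near 0 in pair 2.

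The 66 cytosolic ribosomal protein genes showed small differences in 1 direction: 63 were positive over all 4 pairs, with a median of 0.08 and none past the test. In every pair 31 were higher, where 7.78% of all genes were. DESeq2 called RPL41, RPS18 and RPL7A over all 4 pairs, among 15 genes in all. RPL41 was at 454, 514, 446 and 516 CPM with OPG and 408, 442, 391 and 396 CPM with RANKL. RPS18 was at 913, 1070, 950.02 and 990 CPM with OPG and 843, 955, 824 and 835 CPM with RANKL. Of the 66, 24 rose in pairs 1 and 3, against 2.06% of all genes called higher. With the correction for base composition 11 were called higher, against 0.536% of all genes. RPL39 fell by 0.32 in the uncorrected fit; of the 24, 12 were higher in pair 2 and 23 in pair 4. As a share of all counts, ribosomal protein genes took 5.42, 5.72, 5.40 and 5.48% in OPG 1 to 4 and 5.14, 5.70, 5.08 and 5.14% in RANKL 1 to 4. The share was higher with OPG in 4 of 4 pairs by a mean of 0.24 percentage points (exact paired permutation test, two-sided p = 0.125, the smallest that 4 pairs allow). Many of these genes have processed pseudogenes that can take or lend reads.

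Mitochondrially encoded mRNAs, 13 transcripts for subunits of the respiratory chain and ATP synthase, were at lower levels with OPG. They took 2.19, 1.91, 1.79 and 2.09% of counts in OPG 1 to 4 and 2.34, 1.91, 2.40 and 2.37% in RANKL 1 to 4. The pair difference was wide in pair 3 and almost nil in pair 2, with a mean of -0.26 percentage points (lower in 4 of 4 pairs; exact paired permutation test, two-sided p = 0.125, the smallest possible). All 13 had a negative log2 fold change (median -0.17), 5 were lower in every pair, where 7.06% of all genes were, and none passed over all 4 pairs. MT-ND5 was at 1127, 772, 824 and 962 CPM with OPG and 1225, 813, 1115 and 1155 CPM with RANKL. MT-ATP6 was at 967, 815, 742 and 899 CPM with OPG and 1095, 823, 1036 and 1037 CPM with RANKL, with a log2 difference of -0.01 in pair 2. Of the 13, 8 fell in pairs 1 and 3, against 3.19% of all genes called lower; MT-ATP6 fell by 0.33, MT-ND5 by 0.28 and MT-CYB by 0.22. Those 8 were all lower in pair 4 and 4 were lower in pair 2. With the correction for base composition and length 1 of the 13, MT-CYB, was called lower in pairs 1 and 3, at a list median of -0.24. The corrected fit called 0.304% of all genes lower. The 40 nuclear genes of the respiratory chain had a median of 0.06 with 29 positive. In pairs 1 and 3 they gave 3 calls in each direction, and none with the correction. Over all genes, 2.06% were called higher there and 3.19% lower.

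**Figure D5:**
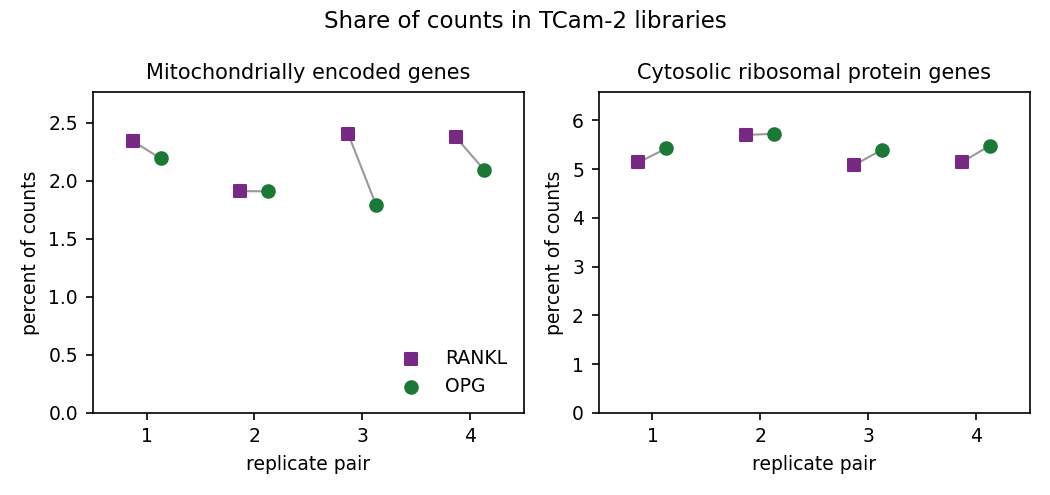
Percent of all counts (vertical axes, from 0) from the 13 mitochondrially encoded mRNAs and from the 66 cytosolic ribosomal protein genes in each replicate pair (horizontal axes), with RANKL libraries as squares and OPG libraries as circles. The mitochondrial share was 1.79% with OPG and 2.40% with RANKL in pair 3 and 1.91% in both libraries of pair 2.

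Pluripotency genes differed little. Of 17 tested, 11 were positive over all 4 pairs (median 0.08) and none passed. In every pair 6 were higher, where 7.78% of all genes were. POU5F1 was at 1757, 1901, 1961 and 1907.5 CPM with OPG and 1632, 1894, 1679 and 1620 CPM with RANKL, a log2 fold change of 0.14. KLF4, a reprogramming factor, was at 111, 123, 145 and 121 CPM with OPG and 107, 108, 113 and 102.5 CPM with RANKL, a log2 fold change of 0.21. Both genes were higher with OPG in every pair, and in pairs 1 and 3 POU5F1 rose by 0.17 (adjusted p = 0.0105) while KLF4 did not pass (adjusted p = 0.0669). L1TD1, an RNA-binding protein of pluripotent cells, fell by 0.19 in pairs 1 and 3 but was higher with OPG in pair 2 by 0.26. The 17 seminoma and primordial germ cell markers had a median of 0.01 and 9 positive values. The 11 embryonal carcinoma markers had a median of 0.15. In pairs 1 and 3, where 2.06% of all genes were called higher, PODXL, DNMT3L and KRT19 rose. The correction for base composition gave 1 higher call there in the pluripotency list and 1 in the embryonal carcinoma list. The corrected fit called 0.536% of all genes higher.

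Cell cycle and lipid synthesis genes had medians near 0. The 28 genes of S phase and mitosis had a median of 0.01 with 15 positive over all 4 pairs, and -0.03 with 13 positive in pairs 1 and 3. In pairs 1 and 3, 2.06% of all genes were called higher and 3.19% lower. The cyclin-dependent kinase CDK1 fell by 0.29 there, the topoisomerase TOP2A by 0.27, and CCNA2 and CCNB1 also fell, while MYBL2 and CDC20 rose. In pair 2 the 4 that fell were all higher with OPG. The 20 cholesterol synthesis genes had a median of -0.04 and 7 positive values, and HMGCS1, MSMO1 and SC5D were among the genes that fell in pairs 1 and 3. With the correction for base composition no cell cycle or cholesterol synthesis gene was called there. Of 20 p53 and apoptosis genes, 8 were positive with a median of -0.01. The 11 tested replication-dependent histone genes had a median of -0.24 with 2 positive and no call, and in pairs 1 and 3 a median of 0.01; their mRNAs mostly lack a poly(A) tail, so their capture here is partial.

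The difference between OPG and RANKL was set beside the same difference in NTera2, whose 4 OPG and 4 RANKL libraries had the same dose and time. The interaction term called 1 of 19779 genes (0.00506%), KRT18, with a difference of 0.36 between the log2 fold changes of the lines (adjusted p = 0.00221). In NTera2 the log2 fold change of KRT18 was -0.09 at means of 418 CPM with OPG and 440 CPM with RANKL, where the same scaling gives 4034 and 3292 CPM in TCam-2. KRT18 was thus at a much lower level in NTera2 and did not pass there (adjusted p = 0.432). The next genes were RPL41 (0.35), NOP56 (0.30) and RPS27A (0.28), none past the test of the interaction. Their log2 fold changes were -0.12, -0.08 and -0.20 in NTera2, against 0.24, 0.23 and 0.09 in TCam-2. Among them RPS27A alone was called within NTera2, where it was lower with OPG (adjusted p = 0.0211). Genes ranked on the negative side were INSYN2B, CNTN2, PTP4A3 and SFRP1, and none passed. Each of them was at a low level in 1 of the lines. INSYN2B averaged 0.29 CPM with OPG and 0 CPM with RANKL in NTera2, against 116 and 116 CPM in TCam-2. In TCam-2 CNTN2 averaged 0.02 and 0.36 CPM, PTP4A3 4.01 and 5.91 CPM, and SFRP1 2.23 and 3.93 CPM. In NTera2 the median was -0.05 for the stress response list, -0.01 for glycolysis and -0.07 for ribosomal proteins, and 0.01 for mitochondrial mRNAs. The interaction called none of their members.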

How the data were processed

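Raw read counts per gene were used as deposited by the authors. Per the submitters' processing notes, bcl2fastq 2.20.0, STAR 2.7.9a, featureCounts 1.6.2 and the build GRCh38 were used; the annotation and strand setting are not given in the sources used here, so reads of overlapping antisense genes cannot be told apart. The deposited count table also holds a gene length, which was not used for tests. Counts were tested with edgeR 4.0.16 (R 4.3.3; quasi-likelihood test, expression filter, TMM factors, Benjamini-Hochberg, adjusted p threshold 0.05, two-sided), with the replicate number as a block, on the 8 TCam-2 OPG and RANKL libraries and on pairs 1 and 3. The pairing comes from shared passages; deviations of same-numbered libraries correlated at 0.373, -0.138, 0.0308 and 0.237 in pairs 1 to 4. Alternatives used DESeq2 1.42.0, limma 3.58.1 and other designs. Scripts were tested on simulated data. CPM are counts on TMM-scaled totals of the genes tested; log2 pair differences add a prior count of 2. GC content came from GENCODE transcripts.

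Named genes were the RANKL, RANK and OPG genes, 7 identity genes, the 12 in each direction with the smallest p over all 4 pairs among those with a symbol, at least 5 CPM and 1 sign in every pair, the 4 in each direction in the other fits, and up to 4 of each list. The members and lists were chosen with earlier results of these data known. Replicates are described as 4 experiments with 1 cell line; p-values measure the spread between them.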

Additional observations from a re-analysis of the deposited data

Results flagged for a closer look

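In 60 checks of groups of 4 libraries, 4 had 1 library whose gap to its nearest neighbour was too large a part of the group's range; chance flags about 5% of groups. TNFSF11 in OPG was flagged with a gap of 1 of the range, since only OPG 3 had any count (3), and in RANKL with a gap of 1, since only RANKL 2 had any (4). The mitochondrial share of counts in RANKL was flagged at 0.877, because RANKL 2 (1.91%) lay below the other 3 libraries (2.34 to 2.40%). The ribosomal protein share in RANKL was flagged at 0.897, because RANKL 2 (5.70%) lay above the others (5.08 to 5.14%). OPG 2, of the same pair, lay at 1.91% and 5.72%. The difference between OPG and RANKL differed between the lines for 1 gene, KRT18, by the test of the interaction.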

How the results depend on the processing

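The list medians of histones, fibroblast markers, osteoclast genes, RANKL and its receptors, and S phase and mitosis genes differed in sign between all 4 pairs and pairs 1 and 3, and SUB1, HSP90B1, CENPE, TEDC1 and SLC16A3, called in pairs 1 and 3, had the opposite sign in pairs 2 and 4. Over all 4 pairs, where 1 gene was called, the count was 0 without the replicate block, 15 with DESeq2, 24 without a filter on low counts, 0 with all 16 TCam-2 libraries, 0 with the RNA integrity number as a covariate, 193 with library quality weights, 0 in pairs 2 and 4 alone and 20 with the correction for GC content and length. It was 0 without RANKL 2 and 0 without RANKL 4 when unpaired, and 0 to 564 when 1 pair was left out, the 564 without pair 2. The 15 genes of DESeq2 were KRT18, KRT8, YARS1, AARS1, SARS1, NOP56, FKBP4, RPL41, RPS18, RPL7A, LINC02387, ATF4, PHGDH and BANF1, higher with OPG, and SERPINE2, lower. In pairs 1 and 3, where 822 genes were called, pairing mattered as much: 0 without the replicate block, 74 with DESeq2, 130 with the correction for GC content and length, 0 for RANKL 1 and 3 against all 4 OPG libraries, 0 with 14 libraries, and 4 to 437 when 1 library was left out unpaired (437 without OPG 1, 8 without OPG 3, 4 without RANKL 1, 163 without RANKL 3). Upper-quartile factors gave 1157 calls there, split 533 higher and 624 lower. The interaction of pairs (0 calls) gave 24 without a filter, and 153 without pair 2 or 2196 without pair 4. The interaction of lines (1 call) gave 2 without the replicate block, 155 with DESeq2, 52 without a filter, 14 without TCam-2 pairs 2 and 4 and 0 to 98 when 1 pair number was left out, the 98 without number 2. The cause of these changes was not tested. Leave-one-out fits kept the signs of both count shares: -0.14 to -0.35 percentage points for mitochondrial and 0.21 to 0.31 for ribosomal protein genes. The counts of 0 include KRT18, which by definition missed the threshold in those fits. Alternatives were also run gene by gene for the named genes, KRT18 included. Of these values, 62 passed only under the alternative, 5 were lost and 158 were counted as unchanged. The 158 include genes to which DESeq2 gave no adjusted p, such as PSRC1, FOLR1 and IFITM3, which lie on neither side of the threshold. Of 87 list medians, 5 moved, all in pairs 1 and 3: pluripotency (0.06), embryonal carcinoma markers (0.27), nuclear respiratory chain genes (0.02), histones (0.01) and fibroblast markers (0.15). The median standard error over all 4 pairs was 0.09 on the log2 scale for genes of at least 10 CPM. It is not a limit of detection, since larger differences also missed the threshold with all genes adjusted together. Examples are C1QTNF6 at 0.55 and YARS1 at 0.29.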

Other observations

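Several gene lists gave no or few calls and are given as values only. Over all genes, 2.06% were called higher and 3.19% lower in pairs 1 and 3. Of 15 tested interferon response genes, 9 were positive over all 4 pairs (median 0.02), and in pairs 1 and 3 IFITM3 and HLA-E rose. The 13 heat shock genes had a median of 0.05 with 10 positive, and the 17 immediate early genes a median of 0.04 with 9 positive. The 17 tested targets of WNT and the TGF-beta family had a median of -0.03, and the 17 epithelial, mesenchymal and invasion genes a median of -0.02. The 11 tested genes of somatic and extraembryonic differentiation had a median of -0.16 with 5 positive. The 26 long transcripts of the cytoskeleton and nucleus had a median of 0.04 with 16 positive, and in pairs 1 and 3 ASPM and CENPE fell.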
